A study of Mus musculus with 18 samples.

Results

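The 7 genes described here are 2 Ras GTPase genes (Hras and Nras), the Raf kinase gene Braf, the transcription factor gene Myc, the cyclin D1 gene Ccnd1 and the genes of its kinase partners, Cdk4 and Cdk6. They were taken by symbol from a table of 24493 genes, and all 7 were among the 13422 genes that passed the filter on low values. RNA was sequenced from mouse pancreatic tumor cells that were implanted under the skin, grown as tumors and then sorted. The cells were of the lines 6419c5 and 6694c2, both of strain C57BL/6, and no group received a treatment. Each line had a WT group and 2 groups carrying a knockout of Kdm3a, the gene of a histone H3 lysine 9 demethylase. Every group had 3 libraries, which makes 6 groups and 18 libraries. The 3 libraries of a knockout group come from 1 clone, so they describe that clone. The clones are called A and B, as the deposited columns name them. The labels give no age of the mice, no marker used for the sort, no method of knockout, and no word on whether the libraries of a group are separate animals, so p-values measure the spread between libraries, which may be technical.

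Ras proteins are membrane-bound switches that, when loaded with GTP, recruit Raf kinases to start the RAF, MEK and ERK phosphorylation cascade. ERK activity raises the output of immediate and delayed early genes, lengthens the life of the MYC protein and raises transcription of Ccnd1. Cyclin D1 binds CDK4 or CDK6, and the complex phosphorylates RB, which frees E2F factors to transcribe genes of DNA replication. Pancreatic ductal cancers are known for activating Ras mutations and loss of the inhibitors of the cyclin D kinases. Transcript levels do not show GTP loading, phosphorylation or protein stability, through which most of this pathway is controlled.

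The values are TPM, transcript abundances corrected for transcript length and brought to the same total in each library. Under a fixed total, more of an abundant transcript lowers the values of all others. The transcript Mir6236 alone held from 6.04% (clone A 1 of 6694c2) to 17.4% (WT 3 of 6694c2) of the total. Comparisons between libraries therefore depend on the scaling, which was varied. Read numbers and depth are unknown, and 12213 to 13590 genes reached 1 TPM in a library. The transcript of the targeted gene, Kdm3a, fell by 0.75 on the log2 scale over both lines (SE 0.127, limma adjusted p = 7.99e-04). By clone, the change was -0.45 in clone A of 6419c5, which did not pass (adjusted p = 0.299), and -1.04 in clone B (adjusted p = 0.00306). In 6694c2 it was -0.76 in clone A (adjusted p = 0.0172) and -0.73 in clone B (adjusted p = 0.0278). These 2 calls held in 26 and 24 of 32 alternative fits, with the smallest falls at -0.46 and -0.48. The call over both lines held in all 31 of its alternatives. Its level ranged from 24.1 to 38.2 TPM in WT 6419c5 against 12.3 to 24.6 TPM in its clones. In 6694c2 it was 39.9, 38.9 and 67.6 TPM in WT, the last in WT 3, against 25.2 to 30.2 TPM in the clones. The 8 epithelial tumor markers were detected in every library and summed to 5493 to 12810 TPM, while 10 macrophage markers summed to 150 to 8880 TPM despite the sort. In bulk RNA, fewer cells of a type and less RNA per cell cannot be told apart. Library WT 3 of 6694c2 stood apart in a length index, the median deviation of genes with long transcripts minus that of genes with short transcripts: it was at 0.46, WT 1 of 6419c5 was at 0.15, and the others lay between -0.15 and 0.11. The median of all tested genes itself shifted by 0.15 in the knockout comparison of 6694c2 and by -0.22 between the WT lines on the log2 scale, so the changes there are read against these shifts.

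The 7 genes covered a wide range of levels. Cdk4 and Ccnd1 were the most abundant, with means over the 18 libraries of 299 and 284 TPM, above 97.0% and 96.8% of the tested genes. Myc (72.9 TPM) and Nras (68.8 TPM) followed, then Hras (39.3 TPM) and Cdk6 (20.8 TPM). Braf was the lowest at 5.35 TPM, above 22.7% of the tested genes. The ratio of the highest to the lowest library was smallest for Myc, at 1.45, and largest for Cdk6 and Braf, at 3.74 and 3.05.

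**Figure D1:**
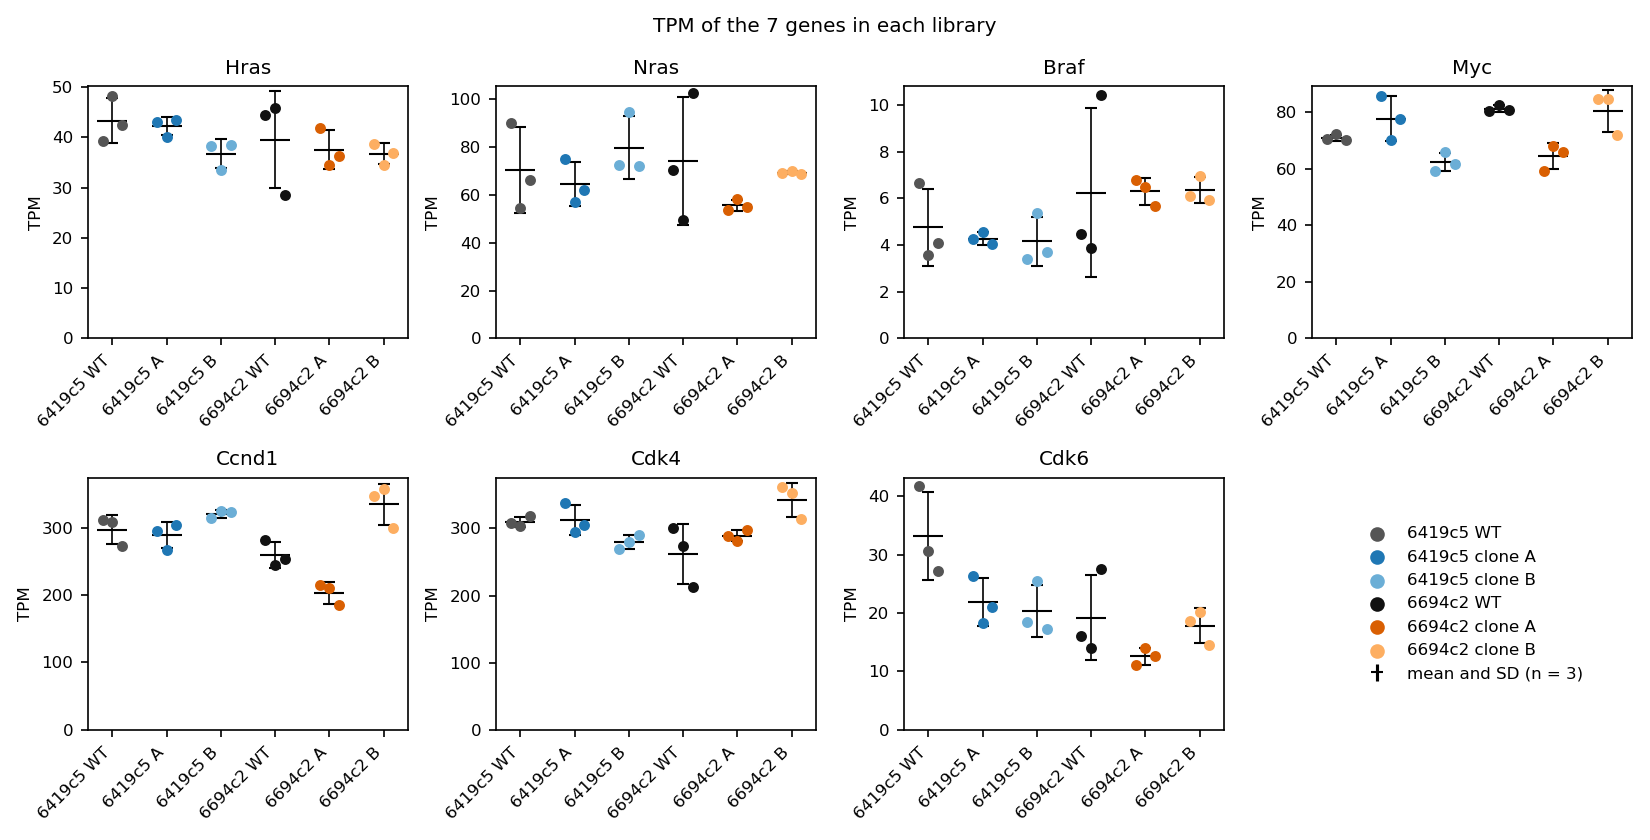
TPM of the 7 genes (vertical axes, linear, from 0) in each of the 18 libraries, by group (horizontal axes); each point is a library, and the bars give the mean and SD of 3 libraries. The 3 libraries of 6694c2 clone A lie at the bottom of the Ccnd1 panel (185 to 215 TPM) and those of clone B between 299.8 and 357 TPM.

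In the knockout comparison of 6419c5 (both clones against WT), 0 of the 7 genes passed the threshold of an adjusted p under 0.05, where 7.38% of all tested genes did. In 6694c2 the number was 1 of 7, Cdk4, against a background of 20.4%. Averaged over both lines it was 1 of 7, Cdk6, against 18.4%. The effects of the knockout in the 2 lines differed for 0 of 7 and for 8.71% of all genes. For the comparisons with 0 called members, 1 member each had an unadjusted limma p under 0.05, Cdk6 in 6419c5 and Cdk4 in the difference between lines. With 7 members, 1 called gene is already 14.3%, so these counts do not set the members apart from all genes. The single clones differed more than their averages did, as the plot of clone changes shows.

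**Figure D2:**
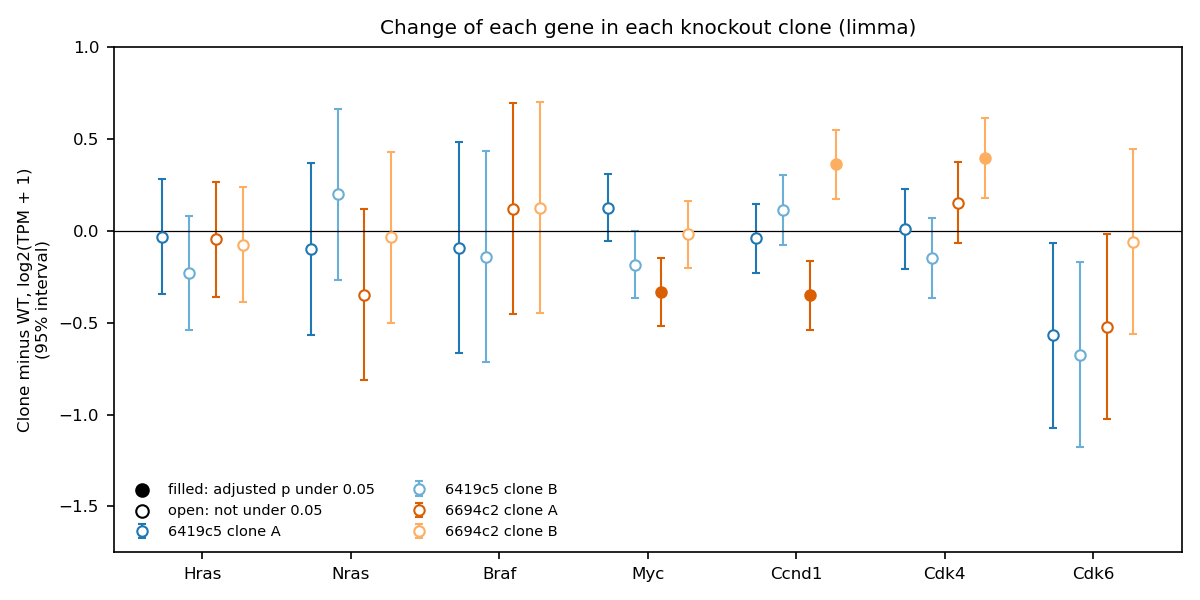
Change of each of the 7 genes (horizontal axis) in each knockout clone against the WT libraries of its line, as a difference of log2(TPM + 1) (vertical axis) with its 95% interval from limma; filled points have an adjusted p under 0.05. In 6694c2 the change of Ccnd1 was -0.35 in clone A and 0.36 in clone B; the clones of a line share their WT libraries.

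Hras (chromosome 7, 141189105 to 141194005, minus strand, GRCm38, the assembly also called mm10) encodes a Ras GTPase that is anchored in the plasma membrane by farnesyl and palmitoyl groups. Its level in 6419c5 was 39.3, 48.3 and 42.4 TPM in WT, 43.0, 40.1 and 43.5 TPM in clone A and, in clone B, 38.2, 33.5 and 38.6 TPM. In 6694c2 it was 44.4, 45.8 and 28.5 TPM in WT, 41.9, 34.5 and 36.2 TPM in clone A and, in clone B, 38.7, 34.5 and 36.8 TPM. The lowest library of all was WT 3 of 6694c2, the one with the high length index. In the order of the group means, from WT 6419c5 (43.3 TPM) down to 6694c2 clone B (36.7 TPM), every group overlapped the next. The change over both lines was -0.10 (95% interval -0.29 to 0.09, limma adjusted p = 0.503). It passed in 3 of 31 alternatives: with the length index as a covariate, without WT 3 of 6694c2, and without that library and WT 1 of 6419c5 (-0.24, adjusted p = 0.0184).

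Nras (chromosome 3, 103058285 to 103067914, plus strand) encodes a second Ras GTPase of the same fold. WT 6419c5 had 89.7, 54.4 and 66.1 TPM, clone A 74.8, 56.7 and 61.7 TPM, and clone B 72.3, 94.5 and 71.7 TPM. WT 6694c2 had 70.3, 49.2 and 102 TPM, clone A 53.6, 58.1 and 54.8 TPM, and clone B 69.0, 69.7 and 68.4 TPM. The lowest and the highest of the 18 libraries were both WT 6694c2, and neighbouring groups overlapped throughout the order of means. The change over both lines was -0.07 (95% interval -0.36 to 0.21, limma adjusted p = 0.763). Within a library the ratio of Hras to Nras was 0.630 in WT and 0.554 in the knockouts of 6419c5, and 0.546 and 0.599 in 6694c2 (geometric means of 3 and 6 libraries). The ratio did not differ beyond the libraries' spread in either line (two-sided exact permutation p = 0.560 and 0.738; 0.671 and 0.738 adjusted over 6 ratio tests). The smallest p that 3 against 6 libraries allow is 0.0119.

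Braf (chromosome 6, 39603237 to 39725463, minus strand) encodes the Raf kinase with the strongest activity towards MEK. In 6419c5 it was at 6.65, 3.56 and 4.09 TPM in WT, 4.24, 4.56 and 4.03 TPM in clone A and, in clone B, 3.42, 5.37 and 3.71 TPM. In 6694c2 it was at 4.45, 3.87 and 10.4 TPM in WT, 6.78, 6.50 and 5.66 TPM in clone A and, in clone B, 6.10, 6.97 and 5.95 TPM. WT 3 of 6694c2 was the highest library; the other WT libraries of that line lay below all 6 of its knockout libraries. The knockout change in 6694c2 was 0.12 (95% interval -0.37 to 0.62, limma adjusted p = 0.745), and Braf, like Hras and Nras, passed in none of the 11 comparisons. Over 32 alternatives this change ran from -0.19 to 0.50, and Braf passed in 2 of them, with the length index as a covariate and without WT 1 of 6419c5 and WT 3 of 6694c2 (0.50, adjusted p = 0.0232).

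The length index moved with several of these genes. The longest annotated transcripts have 11525 bases for Cdk6, 9728 for Braf and 4470 for Nras, and 3740 for Ccnd1, 2828 for Hras, 2338 for Myc and 2053 for Cdk4. In WT 3 of 6694c2, Nras and Braf were at their highest and Hras and Cdk4 at their lowest of the 18 libraries. In WT 1 of 6419c5, Cdk6 was at its highest. The part of RNA quality or library preparation in this pattern was not tested.

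**Figure D3:**
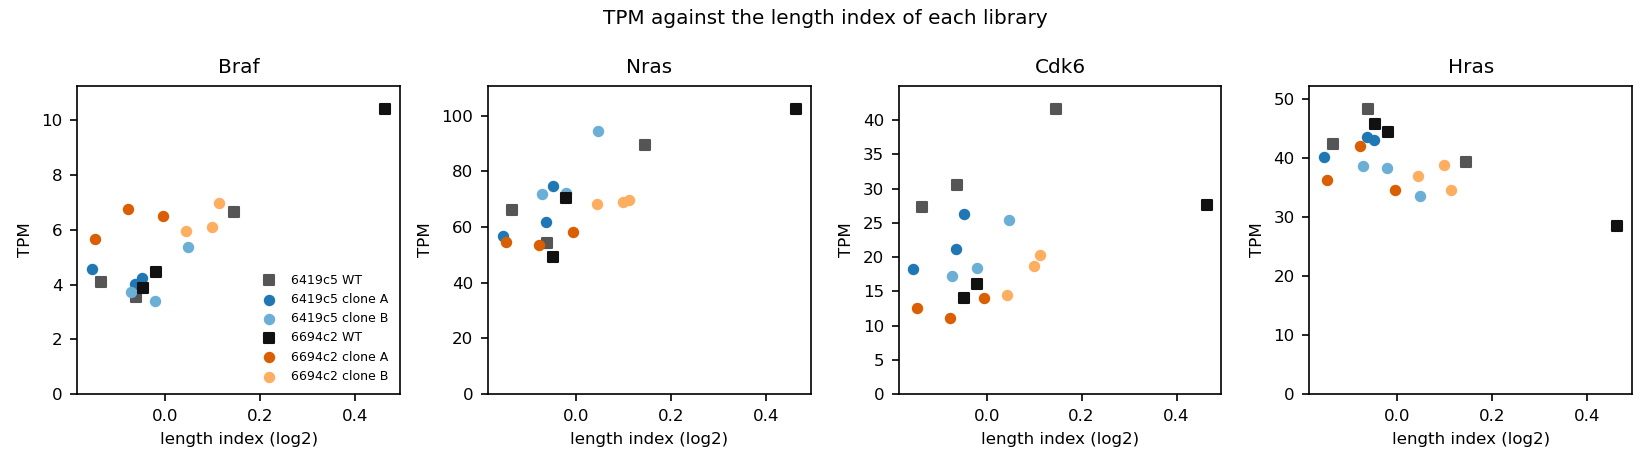
TPM of Braf, Nras, Cdk6 and Hras (vertical axes, linear, from 0) against the length index of the library (horizontal axes, log2 units); each point is 1 of the 18 libraries, with WT as squares. The library farthest to the right, at 0.46, is WT 3 of 6694c2, with 10.4 TPM of Braf, 102 TPM of Nras and 28.5 TPM of Hras.

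Myc (chromosome 15, 61985391 to 61990374, plus strand) encodes a transcription factor that binds DNA as a dimer with MAX. In 6419c5 it was at 70.6, 72.2 and 70.2 TPM in WT, 85.7, 70.1 and 77.7 TPM in clone A and, in clone B, 59.4, 65.9 and 61.9 TPM. All libraries of clone B were below those of WT and of clone A, while clone A overlapped WT. In 6694c2 it was at 80.5, 82.7 and 81.0 TPM in WT, 59.3, 68.2 and 66.0 TPM in clone A and, in clone B, 84.9, 84.7 and 71.9 TPM. Here clone A was the one below WT and below clone B, and clone B overlapped WT.

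Myc fell by 0.33 on the log2 scale in clone A of 6694c2 (0.794-fold, SE 0.086, limma adjusted p = 0.0130), where it was 1 of 2 called members of 7 against 21.7% of all genes. In clone B of 6694c2 its change was -0.02 (adjusted p = 0.902), in clone A of 6419c5 0.13 (adjusted p = 0.538) and in clone B of 6419c5 -0.18 (adjusted p = 0.156). Between the clones of 6419c5 the value in B minus that in A was -0.31 (SE 0.086, adjusted p = 0.0148), the only member called there, against 26.3% of all genes. Between the clones of 6694c2 it was higher in B by 0.31 (SE 0.086, adjusted p = 0.0339), 1 of 2 members called against 9.53%. That call held in 20 of 32 alternatives and the one of 6419c5 in 27 of 32. Scaling by the median of gene ratios took the first clone difference to -0.20 (adjusted p = 0.157) and the second to 0.26 (adjusted p = 0.124). It moved the knockout change of 6694c2 from -0.18 (adjusted p = 0.106) to -0.38 (adjusted p = 0.00582) and that over both lines from -0.10 (adjusted p = 0.196) to -0.21 (adjusted p = 0.0257), so whether Myc passed in these 2 comparisons turned on the scaling.

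Markers of several other cell types moved with the clones of 6694c2. Against WT, 8 of 10 macrophage, 8 of 9 fibroblast and 6 of 8 endothelial markers were called higher in clone A, and 0, 0 and 0 in clone B (limma; 0, 1 and 1 at an unadjusted p under 0.05). T and NK cell markers were higher in both clones, 3 of 4 tested in each, and neutrophil markers 5 of 6 in clone A and 1 of 6 in clone B. The 8 T and NK cell genes in the table were low, with sums of 1.24 to 26.5 TPM and up to 5 at 0 in a library. Of all genes, 14.7% were higher and 7.01% lower in clone A, and 10.6% and 3.94% in clone B. Epithelial markers were lower, 4 of 8 in clone A and 3 of 8 in clone B. The mean of the macrophage markers as log2(TPM + 1) was 7.79 to 8.43 in clone A, 4.66 to 7.73 in clone B and 3.44 to 6.79 in WT; in 6419c5 it was 7.26 to 9.19 in clone A, 3.85 to 4.71 in clone B and 6.22 to 8.91 in WT. The 10 macrophage genes were above 0 in every library. With this index as a covariate, the change of Myc in clone A of 6694c2 was -0.20 (limma adjusted p = 0.177), and without replicate 1 of that clone it was -0.27 (adjusted p = 0.0594). With the covariate the clone difference of Myc was -0.50 (adjusted p = 0.0186) in 6419c5. The clone difference of 6694c2 was 0.21 (adjusted p = 0.280) with the covariate and did not pass. The index did not overlap between the clones of 6419c5, nor between clone A of 6694c2 and the other groups of its line. For those comparisons, of any gene, the covariate cannot set the clone and its macrophage content apart.

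Ccnd1 (chromosome 7, 144929931 to 144939925, minus strand) encodes cyclin D1, the regulatory subunit that activates CDK4 and CDK6. In 6694c2 its level was 281, 245 and 254 TPM in WT, 215, 211 and 185 TPM in clone A and, in clone B, 347, 357 and 299.8 TPM. These 3 groups did not overlap: every library of clone A was below WT and every library of clone B above it. In 6419c5 it was 311, 308 and 272 TPM in WT, 295, 267 and 303 TPM in clone A and, in clone B, 314, 325 and 323 TPM. There, clone B lay above both other groups by a narrow gap, and clone A overlapped WT.

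Between the clones of 6694c2, Ccnd1 was higher in B by 0.71 on the log2 scale, 1.64-fold (SE 0.088, 95% interval 0.53 to 0.90, limma adjusted p = 4.64e-04). This difference passed in all 32 alternative fits, with values from 0.60 to 0.83. The value of 0.60 (adjusted p = 0.00549) came with the macrophage index as a covariate, which did not overlap between these clones. Replicate 3 of clone B, the library of that clone with the highest macrophage index (7.73), was also its lowest for Ccnd1 at 299.8 TPM. Markers of other cells were lower in clone B than in clone A for 5 of 9 fibroblast, 4 of 6 neutrophil and 4 of 8 endothelial genes. So were 2 of 4 T and NK cell genes, where 4.26% of all genes were lower. Of the 10 macrophage genes 0 were called, but 10 were lower at an unadjusted limma p under 0.05. The part of these cells in the difference of Ccnd1 was not tested. Against WT, Ccnd1 fell by 0.35 in clone A (SE 0.088, adjusted p = 0.0112) and rose by 0.36 in clone B (SE 0.088, adjusted p = 0.0130), where it was 1 of 2 called members against 14.5% of all genes. The mean of both clones was 0.01 away from WT (adjusted p = 0.968).

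The comparisons of Ccnd1 with WT were less stable than that between the clones. The fall in clone A became -0.21 (limma adjusted p = 0.169) with the macrophage covariate and -0.28 (adjusted p = 0.0577) without replicate 3 of the clone. The rise in clone B became 0.13 (adjusted p = 0.465) after median-of-ratios scaling, 0.25 (adjusted p = 0.150) after quantile normalization and 0.25 (adjusted p = 0.102) after removal of the 20 most abundant genes. In 6419c5 the change was -0.04 in clone A (adjusted p = 0.880) and 0.11 in clone B (adjusted p = 0.437). With 4.79% and 18.9% of all genes called in these clones, 0 of the 7 members were called in either, and 1 and 2 of them had an unadjusted limma p under 0.05.

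The other D cyclins gave a measure that does not move with the scaling of a library. Ccnd2 encodes cyclin D2, and the ratio of Ccnd1 to Ccnd2 in 6694c2 was 9.21, 7.21 and 5.82 in WT, 4.05, 4.35 and 4.46 in clone A, and 8.72, 9.11 and 5.50 in clone B. Clone A lay below the other groups, which overlapped. Over both clones the log2 ratio differed from WT by -0.35 (two-sided exact permutation p = 0.286, 0.571 adjusted over 6), and in 6419c5 by 0.10 (exact permutation p = 0.488, adjusted 0.671). Ccnd3, the gene of cyclin D3, was at 54.9, 59.5 and 47.8 TPM in WT 6694c2, 75.5, 69.6 and 74.1 TPM in clone A and, in clone B, 67.4, 61.5 and 65.2 TPM, with both clones above WT. It rose by 0.35 over both clones (SE 0.068, limma adjusted p = 0.00233), but by 0.15 (adjusted p = 0.328) after median-of-ratios scaling.

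Cdk4 (chromosome 10, 127063534 to 127067920, plus strand) and Cdk6 (chromosome 5, 3341485 to 3531008, plus strand) encode the catalytic partners of the D cyclins. Their upstream sequences are shown because the kinases bind the same cyclin while their transcripts differed in level, and because Cdk4 is a textbook target of MYC through the E-box. RefSeq sequences (GRCm38.p6) of the 250 bases before the start were matched by symbol for Hras, Nras, Braf, Cdk4 and Cdk6. Capitals mark CACGTG (the E-box, its own reverse complement) and GGGCGG (the GC box, on either strand); the first lies at chr10:127063285-127063534 and the second at chr5:3343643-3343892, both on the plus strand. The RefSeq start used for Cdk6 lies inside the gene span given above, downstream of its first base, so the second stretch lies before that start and not before the span.
Cdk4: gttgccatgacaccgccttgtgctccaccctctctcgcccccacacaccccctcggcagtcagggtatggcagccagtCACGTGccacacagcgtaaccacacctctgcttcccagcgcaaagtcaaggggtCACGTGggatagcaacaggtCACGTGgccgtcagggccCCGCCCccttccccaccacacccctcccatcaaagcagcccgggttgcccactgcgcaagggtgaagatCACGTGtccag
Cdk6: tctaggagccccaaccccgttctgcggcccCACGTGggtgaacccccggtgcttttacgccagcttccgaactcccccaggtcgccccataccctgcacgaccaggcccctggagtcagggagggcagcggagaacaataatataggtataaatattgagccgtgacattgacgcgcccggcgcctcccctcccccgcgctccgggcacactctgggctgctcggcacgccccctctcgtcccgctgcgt

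The Cdk4 sequence held 4 matches of CACGTG, which began 172, 118, 98 and 11 bases before the start. The Cdk6 sequence held 1, and Nras held 1, while Hras and Braf held none in this window. Of 32851 promoters of the same length, 6.02% held CACGTG and 32.7% held GGGCGG. A match is a string of letters and not a measured binding site, and no binding was measured here. Against WT, the changes of Myc and Cdk4 were -0.33 and 0.15 in clone A of 6694c2, and -0.02 and 0.40 in clone B. In 6419c5 they were 0.13 and 0.01 in clone A, and -0.18 and -0.15 in clone B. The Cdk4 value in clone A of 6694c2 did not pass (limma adjusted p = 0.315) and was -0.02 after median-of-ratios scaling. A part of MYC in the level of Cdk4 was not tested.

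In 6419c5, Cdk4 was at 307, 304 and 318 TPM in WT, 337, 294 and 305 TPM in clone A and, in clone B, 269, 279 and 289 TPM. Clone B was below the other groups, which overlapped, and the change over both clones was -0.07 (limma adjusted p = 0.778). In 6694c2 it was at 300.3, 273 and 213 TPM in WT, 289, 281 and 297 TPM in clone A and, in clone B, 361, 353 and 314 TPM. Clone B lay above all other 6694c2 libraries, clone A overlapped WT, and the lowest library was again WT 3. Over both clones of 6694c2, Cdk4 rose by 0.28 (SE 0.088, adjusted p = 0.0402) and by 0.40 in clone B (1.32-fold, SE 0.102, adjusted p = 0.0175). Without WT 3 the first value was 0.13 (adjusted p = 0.162), and after median-of-ratios scaling it was 0.07 (adjusted p = 0.703). The call over both clones held in 12 of 32 alternatives and that in clone B in 27 of 32, where median-of-ratios scaling gave 0.17 (adjusted p = 0.460).

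Cdk6 was lower in the knockouts of 6419c5 than in WT in every library, while the libraries of 6694c2 overlapped. In 6419c5 it was at 41.6, 30.6 and 27.2 TPM in WT, 26.3, 18.3 and 21.1 TPM in clone A and, in clone B, 18.4, 25.4 and 17.2 TPM. All 6 knockout libraries were below all 3 WT libraries, the nearest pair being 26.3 and 27.2 TPM. In 6694c2 it was at 16.1, 13.996 and 27.6 TPM in WT, 11.1, 14.03 and 12.6 TPM in clone A and, in clone B, 18.7, 20.3 and 14.5 TPM. There WT 3 was the highest library, and clone B overlapped WT. Against WT the fitted value in 6694c2 was -0.52 in clone A (limma adjusted p = 0.130) and -0.06 in clone B (adjusted p = 0.893). Without WT 3 the value of clone B was 0.22, and with the macrophage covariate that of clone A was 0.11 and that of clone B 0.07.

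Over both lines Cdk6 fell by 0.46 on the log2 scale (0.729-fold, SE 0.144, limma adjusted p = 0.0396). The changes by line were -0.62 in 6419c5 (SE 0.204, adjusted p = 0.0844) and -0.29 in 6694c2 (SE 0.204, adjusted p = 0.330), and they did not pass a test of their difference (0.33, adjusted p = 0.525). That difference ran from 0.14 to 0.93 over 31 alternatives and passed in 2 of them. The change in 6419c5 ran from -0.85 to -0.45 over 32 alternatives and passed in 5. The pooled call held in 16 of 31 alternatives. Without WT 1 of 6419c5 and WT 3 of 6694c2, the WT libraries with the highest length index in each line, the change over both lines was -0.23 (adjusted p = 0.171). With the length index as a covariate it was -0.30 (adjusted p = 0.0139) and with the macrophage index -0.38 (adjusted p = 0.00391). In 6694c2 alone the macrophage covariate took the change from -0.29 to 0.09 and the omission of those WT libraries to -0.01, and neither value passed. The pooled value of -0.38 with the macrophage covariate was therefore carried by 6419c5 and does not describe both lines.

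Within a library the ratio of Cdk4 to Cdk6 was 7.38, 9.95 and 11.7 in WT 6419c5, 12.8, 16.1 and 14.5 in clone A, and 14.6, 10.98 and 16.8 in clone B. One knockout library lay within the WT range. The geometric mean went from 9.50 to 14.2, a log2 difference of 0.58 (two-sided exact permutation p = 0.0238, 0.143 adjusted over 6). In WT 6694c2 the ratio was 18.7, 19.5 and 7.71, in clone A 26.0, 20 and 23.6, and in clone B 19.3, 17.4 and 21.7. The difference was again 0.58 (exact permutation p = 0.0714, adjusted 0.214), with WT 3 as the lone low library. Without 1 library at a time it ranged from 0.15 to 0.82 in 6694c2, the low value without WT 3, and from 0.39 to 0.72 in 6419c5.

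The unedited lines differed from each other in 46.3% of all tested genes and in 1 of the 7 members. Cdk6 was lower in WT 6694c2, with a log2 difference from WT 6419c5 of -0.79 (0.578-fold, SE 0.235, limma adjusted p = 0.0126), below the median gene at -0.22. It passed in 28 of 31 alternatives, and not without WT 1 of 6419c5 (-0.62, adjusted p = 0.0613) or without WT 1 (-0.70, adjusted p = 0.0505) or WT 2 (-0.61, adjusted p = 0.0617) of 6694c2. Cdk4 at -0.25 (adjusted p = 0.0540), Ccnd1 at -0.19 (adjusted p = 0.0891) and Myc at 0.19 (adjusted p = 0.0779) did not pass. Median-of-ratios scaling, which removes the shift of the median gene, gave -0.03 for Cdk4 (adjusted p = 0.868), 0.03 for Ccnd1 (adjusted p = 0.836) and 0.42 for Myc (adjusted p = 0.00327). Of 31 alternatives, Cdk4 passed in 1, Ccnd1 in 4 and Myc in 3. The relatives of these genes differed by more. Map2k1, the gene of the ERK kinase MEK1, was higher in 6694c2 by 1.46 (63.5 ± 6.51 against 176 ± 5.31 TPM, SD, n = 3; limma adjusted p = 3.47e-09). Ccnd2 was lower there, at -1.35 (94.0 ± 20.6 against 36.0 ± 6.75 TPM; adjusted p = 2.27e-05).

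The wider pathway was followed in 7 lists of genes other than the members, chosen with earlier results of these data known. Of 22 regulators of Ras, such as exchange factors, adaptors and processing enzymes, 1 was higher in the knockouts of 6419c5 (where 3.97% of all genes were higher) and 2 were higher and 1 lower in 6694c2 (14.7% and 5.79% of all genes). After median-of-ratios scaling the 6694c2 numbers were 1 higher and 5 lower, and with the length covariate 4 were higher. Rras, a GTPase gene related to the Ras genes, rose by 0.46 in 6419c5 (SE 0.104, limma adjusted p = 0.0137), from 115 ± 14.7 to 142 ± 2.69 TPM in clone A and, in clone B, 173 ± 3.0 TPM. It did not pass without WT 1 of that line (0.36, adjusted p = 0.0952). Shc1, an adaptor between receptors and Ras, fell by 0.22 in 6694c2 (SE 0.056, adjusted p = 0.0128), with 158 ± 10.5 TPM in WT, 114 ± 5.94 TPM in clone A and, in clone B, 160.3 ± 2.26 TPM. The value of clone A alone was low. Without WT 2 it did not pass (-0.18, adjusted p = 0.0710).

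Of 14 genes of the RAF, MEK and ERK cascade, 0 were called in 6419c5 (1 at an unadjusted limma p under 0.05) and 2 in 6694c2, both higher, a share close to the 14.7% of all genes. After median-of-ratios scaling 0 were higher and 2 lower there, and with the length covariate 5 were higher. Araf, a Raf paralogue of Braf, was at 36.0, 32.6 and 34.8 TPM in WT 6694c2, 48.8, 44.4 and 43.7 TPM in clone A and, in clone B, 44.8, 47.9 and 40.4 TPM, with every knockout library above WT. It rose by 0.37 (SE 0.082, limma adjusted p = 0.00525), or by 0.18 (adjusted p = 0.137) after median-of-ratios scaling. Map2k2, the gene of MEK2, rose by 0.31 (SE 0.096, adjusted p = 0.0338), or by 0.11 (adjusted p = 0.605) after that scaling. Over both lines Mapk3, the gene of ERK1, fell by 0.18 (SE 0.055, adjusted p = 0.0380), a call that held in 19 of 31 alternatives.

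Several transcripts that ERK activity is known to induce fell in the knockouts. Of 14 such genes, 3 fell in 6419c5 (3.4% of all genes were lower), 5 fell in 6694c2 (5.79%) and 6 fell over both lines (5.89%), and 0 rose in any of these comparisons (1, 0 and 0 at an unadjusted limma p under 0.05). Clone by clone, 3 fell in clone A of 6419c5 and 5 in clone B (1.65% and 11% of all genes), and 6 fell in clone A of 6694c2 and 5 in clone B (7.01% and 3.94%). Clone B of 6419c5 also had 2 genes that rose, Spry1 by 0.37 (limma adjusted p = 0.0117) and Spry4 by 0.53 (adjusted p = 0.00332), both feedback inhibitors of receptor signaling, where 7.97% of all genes were higher. In the other 3 clones 0 of the 14 rose, also at an unadjusted p under 0.05, against 3.14%, 14.7% and 10.6% of all genes. The median change of the 14 over both lines was -0.27, against 0.08 for all genes tested. The count over both lines was between 5 and 8 in the 31 alternatives. Because the list was chosen with earlier results of these data known, its counts are descriptions and no independent test. Of the markers of cell types, 4 of 8 epithelial genes were also lower in each line, and 5 of 6 neutrophil and 4 of 4 T and NK cell genes were higher in 6694c2; their part in these counts was not tested. Dusp4 and Dusp5 encode phosphatases that act on ERK, and Spry2 a feedback inhibitor of receptor signaling. Dusp4 fell by 0.98 in 6419c5 (SE 0.163, limma adjusted p = 0.00142), with WT at 60.9 ± 9.87 TPM, clone A at 28.9 ± 4.34 TPM and clone B at 31.6 ± 0.593 TPM. In 6694c2 it fell by 0.78 (SE 0.163, adjusted p = 0.00383), from 195 ± 25.3 to 131 ± 38.0 and 100.4 ± 9.26 TPM. Dusp4 passed in all 32 alternatives in each line.

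Of the other genes of this list, 2 were called in 6419c5 and 4 in 6694c2. In 6419c5, Fosl1, an AP-1 subunit gene, fell by 0.82 (limma adjusted p = 0.0100) and Etv4, an ETS factor gene, by 0.58 (adjusted p = 0.00727). In 6694c2, Dusp5 fell by 0.90 (adjusted p = 4.99e-04), Spry2 by 0.68 (adjusted p = 0.00122), Phlda1 by 0.47 (adjusted p = 0.00144) and the receptor gene Epha2 by 0.31 (adjusted p = 0.0418). The effect differed between lines for Fosl1 (0.89, adjusted p = 0.0424) and Etv4 (0.62, adjusted p = 0.0344). These differences held in 12 and 14 of 31 alternatives. Dusp6, another ERK phosphatase gene, was at -0.02 over both lines (adjusted p = 0.905), Spry4 at -0.07 (adjusted p = 0.535) and Etv5 at -0.12 (adjusted p = 0.267).

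**Figure D4:**
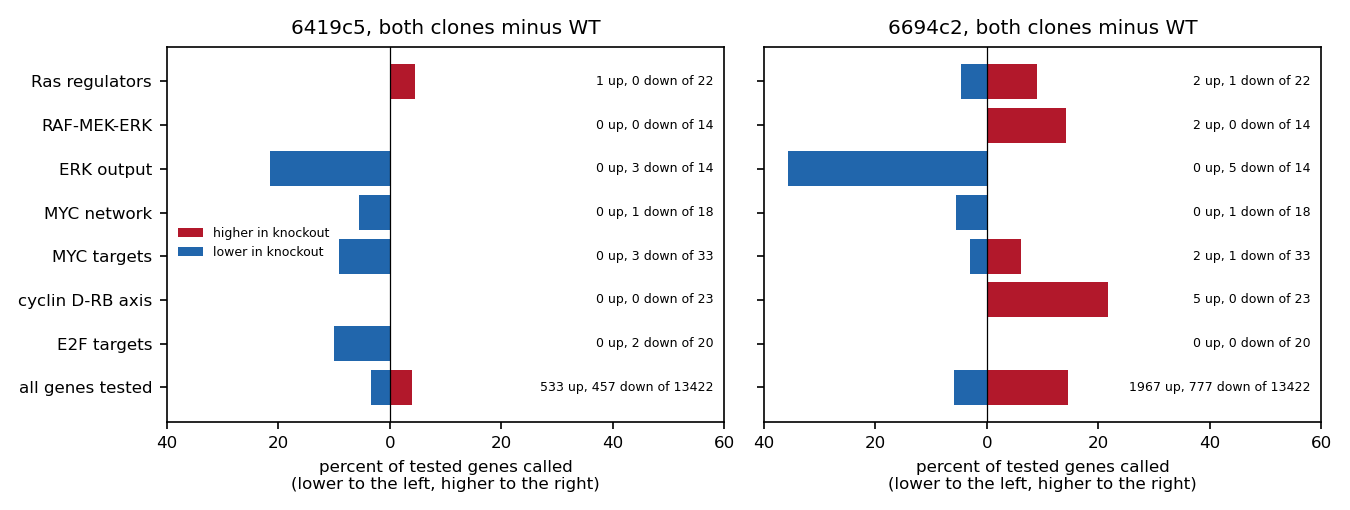
Percent of the tested genes of each pathway list (vertical axis) that were higher (right of 0) or lower (left of 0) in the knockout clones of a line than in its WT group, at a limma adjusted p under 0.05, with all tested genes as the lowest bar; the text in each row gives the numbers. Of the ERK output genes 3 of 14 in 6419c5 and 5 of 14 in 6694c2 were lower, and 0 were higher. The lists were chosen with earlier results of these data known.

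Within the MYC network (18 of 19 listed genes in the table and tested), Mycn fell in both lines and was the only gene called over both lines. Mycn encodes N-MYC, a paralogue that binds the same sites. In 6419c5 it was at 26.5, 21.3 and 24.2 TPM in WT, 17.2, 25.9 and 23.4 TPM in clone A and, in clone B, 6.91, 11.1 and 8.67 TPM. In 6694c2 it was at 9.84, 11.4 and 11.97 TPM in WT, 3.04, 1.45 and 1.82 TPM in clone A and, in clone B, 0.777, 0.364 and 0.711 TPM. Every knockout library was below WT in 6694c2, and in 6419c5 every library of clone B was, while clone A overlapped WT.

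In 6419c5 Mycn fell by 0.74 (SE 0.179, limma adjusted p = 0.0190). In 6694c2 it fell by 2.45 (SE 0.179, limma adjusted p = 2.04e-07). Between the lines these effects differed by -1.71 (SE 0.253, adjusted p = 9.49e-04) and passed in all 31 alternatives, with values from -2.42 to -0.76. The 6419c5 call did not pass without WT 1 (-0.67, adjusted p = 0.0935) or without WT 3 (-0.73, adjusted p = 0.0653). By clone, the change was -0.13 in clone A of 6419c5 (adjusted p = 0.835), -1.36 in clone B (adjusted p = 4.08e-04), -1.99 in clone A of 6694c2 (adjusted p = 1.06e-05) and -2.91 in clone B (adjusted p = 1.60e-07). Myc itself was higher than Mycn in every library. Max, the gene of the shared dimer partner, was lower in clone B than in clone A of 6419c5 (-0.63, SE 0.120, adjusted p = 0.00164), where Myc was lower too.

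Of 33 genes that MYC is known to activate, mostly in ribosome synthesis and metabolism, 3 fell and 0 rose in 6419c5 (3.4% of all genes were lower), and 2 rose and 1 fell in 6694c2 (14.7% and 5.79%). In 6694c2, 9 rose with the macrophage covariate, 7 with the length covariate, and 0 rose and 5 fell after median-of-ratios scaling. Their median change was -0.10 and 0.08, against 0.01 and 0.15 for all genes. The gene lower in both lines was Hk2, a hexokinase gene, at -0.56 in 6419c5 (limma adjusted p = 0.0125) and -0.51 in 6694c2 (adjusted p = 0.0113). Without 1 library at a time the count of falls in 6419c5 went down to 0, and it was 0 without WT 1 of 6419c5 and WT 3 of 6694c2. In clone A of 6694c2, where Myc fell, 1 of the 33 rose and 2 fell (14.7% and 7.01% of all genes), with a median of 0.01 against 0.11. In clone B against clone A of that line 4 rose and 0 fell (5.27% and 4.26% of all genes), and 0 rose with the macrophage covariate.

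In the cyclin D and RB axis, 0 of 23 tested genes were called in 6419c5 (1 higher and 5 lower at an unadjusted limma p under 0.05) and 5 rose in 6694c2, against 14.7% of all genes: Ccnd3, Cdk2, Cdkn2b, Cdkn2c and E2f2. Cdk2 encodes the kinase that acts after CDK4 and CDK6, and it rose by 0.43 (SE 0.101, limma adjusted p = 0.00836), from 12.5 ± 1.37 to 15.5 ± 0.712 and 19.1 ± 2.38 TPM. In clone B of 6419c5 Cdk2 was lower than in WT (-0.41, limma adjusted p = 0.024), a call that held in 27 of 32 alternatives. Its effect differed between the lines (0.69, adjusted p = 0.00827), also in all 31 alternatives. Cdkn2c, which encodes the CDK4 and CDK6 inhibitor p18, rose by 0.48 (SE 0.089, adjusted p = 0.00173), from 33.3 ± 3.58 to 38.1 ± 0.884 and 57.0 ± 1.13 TPM, and passed in all 32 alternatives. The count of 5 was 2 after median-of-ratios scaling and 10 without WT 1 of 6419c5 and WT 3 of 6694c2 or with the length index as a covariate. Cdkn1a, the gene of the inhibitor p21, was lower in clone B than in clone A in 6419c5 (-0.996, adjusted p = 0.0200) and in 6694c2 (-1.07, adjusted p = 0.0328), and with the macrophage covariate neither difference passed.

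The 20 E2F target genes of DNA replication were followed where Ccnd1 differed most. That comparison was chosen for its Ccnd1 value, so the counts there are descriptions, and a link to Ccnd1 was not tested. Between the clones of 6694c2, 8 of 20 were higher in clone B and 0 lower, against 5.27% and 4.26% of all genes, and their median difference was 0.48 against 0.07 for all genes. Uhrf1 was higher by 0.86 (SE 0.144, limma adjusted p = 0.00298), Mcm4, a helicase subunit gene, by 0.85 (SE 0.186, adjusted p = 0.0115), and Mki67, the Ki-67 gene, by 0.93 (SE 0.229, adjusted p = 0.0209); these 3 were chosen after their values were seen. With the macrophage covariate 1 of the 20 was higher, and leaving out 1 library at a time gave 1 to 14. Aurka, a mitotic kinase gene of the MYC network list, was higher by 0.81 in the same comparison (SE 0.122, adjusted p = 0.00160). It too was named outside the rule used for genes of the lists. In the knockout comparisons, 2 of the 20 fell in 6419c5 (3.4% of all genes), and 0 were called in 6694c2 (2 higher at an unadjusted limma p under 0.05), where 20.4% of all genes were. With the macrophage covariate 5 were higher in 6694c2, and with the length covariate 5. The clones of 6694c2 differed here: against WT, 4 of the 20 rose and 0 fell in clone B, where 10.6% of all genes rose. In clone A 0 rose and 1 fell, where 7.01% of all genes fell. The medians were 0.38 in clone B and -0.13 in clone A, against 0.18 and 0.11 for all genes. The count in clone B was 1 after median-of-ratios scaling and 11 with the macrophage covariate. Mcm3 fell by 0.51 in 6419c5 (adjusted p = 0.00496) and Mcm5 by 0.50 (adjusted p = 0.0166).

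The genes whose log2(TPM + 1) followed each member most closely over the 18 libraries were sought among the 10520 genes whose mean reached 5 TPM. For Ccnd1 they were Ccnf (Pearson r = 0.939), Gtse1 (0.930) and Pcdhgb2 (0.929). The first encodes cyclin F and the second a protein of the later cell cycle. For Cdk6 they were D1Ertd622e (0.944), Gfpt1 (0.915) and Nab1 (0.914), for Braf Atad2b (0.955), Klhl9 (0.952) and Arih1 (0.948), and for Nras Mastl (0.946), Arhgap42 (0.941) and Nckap1 (0.938). The closest genes were less alike for Hras (Oaz1-ps, 0.872), Myc (Kctd3, 0.869) and Cdk4 (Snrnp40, 0.869). Among the members themselves r ran from -0.746 for Braf with Hras to 0.613 for Cdk6 with Nras, and was 0.529 for Ccnd1 with Cdk6, 0.407 for Ccnd1 with Cdk4 and 0.025 for Cdk4 with Cdk6. These are descriptions over libraries that share lines, clones, the TPM total and the length index.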

How the data were processed

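The authors quantified reads with Salmon on mm10, per the submitters' processing notes, and deposited TPM per gene; the Salmon version, annotation and summing to genes are not given in the sources used here. The table's name mentions a batch that no label describes, so an adjustment of the values between batches is possible and unknown. TPM sum to 1000000 per library and hold no read numbers, so depth is unknown and no count model was run. Columns name the clones A and B where titles have KO1 and KO2; column letter A was read as KO1, which affects names only.

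The 13422 genes whose mean reached 1 TPM were analysed as log2(TPM + 1), which understates changes of low genes. One limma model (3.58.1, R 4.3.3) of 6 group means over 18 libraries (12 residual degrees of freedom, mean-variance trend) gave 11 comparisons, with Benjamini-Hochberg adjustment over all 13422 genes, and it was tested on simulated data. Ratios were compared by two-sided exact permutation. The 7 genes and the lists were chosen with earlier results of these data known. Beside the 7 genes, the 3 most similar genes and up to 4 called genes per list and line are named, with relatives fixed alongside; not all are printed. Positions and lengths are from GENCODE M21. Alternatives varied the pseudocount, filter, scaling, covariates and libraries. The length index (tertiles of at least 4108 and at most 2407 bases, 98.7% of genes with a length) and the omission of 2 WT libraries were added after seeing the data.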

Additional observations from a re-analysis of the deposited data

Results flagged for a closer look

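The knockout changes of the clones of a line differed from each other for Myc in both lines and for Ccnd1 in 6694c2, by the limma test of that difference. Myc in clone B against clone A was -0.31 in 6419c5 (61.9 TPM against 77.7 TPM as medians of 3 libraries, limma adjusted p = 0.0148) and 0.31 in 6694c2 (84.7 against 66.0 TPM, adjusted p = 0.0339). The second difference did not pass with the macrophage covariate (0.21, adjusted p = 0.280) and held in 20 of 32 alternatives. The letters of the clones carry no shared meaning between lines, so these signs were not compared. Ccnd1 in clone B against clone A of 6694c2 was 0.71 (347 against 211 TPM, adjusted p = 4.64e-04).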

How the results depend on the processing

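Of 2443 values of the 7 genes under an alternative, 2324 kept their side of the threshold, 48 newly passed, 71 no longer passed, none that was called changed sign, and 165 uncalled values changed sign. The counts of called genes moved by over 1.5 times as follows, the cause of each not tested. With the macrophage covariate the 6419c5 knockout count went from 990 to 1490, clone A of 6694c2 from 2913 to 1811, and clone B against A from 3534 to 1359 in 6419c5 and from 1279 to 352 in 6694c2. With the length covariate the 6694c2 knockout count went from 2744 to 4190, the difference between lines from 1169 to 1960 and clone B of 6694c2 from 1949 to 3404. Without WT 1 of 6419c5 and WT 3 of 6694c2 the last was 3162. Clone B against A of 6694c2 gave 550 with 1 line fitted alone. Leaving out 1 library at a time gave 752 to 1255 for the difference between lines, 422 to 746 for clone A and 1632 to 2947 for clone B of 6419c5, 1147 to 2592 for clone B of 6694c2, and 343 to 1872 for clone B against A of 6694c2.

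The replicate numbers do not pair the samples: of 18 same-numbered pairs of libraries of a line, 5 had a correlation of deviations over 0.1 (median -0.063), and the best match of a library had its own number in 2 of 18. With the replicate block, clone B against A of 6694c2 went from 1279 to 823 genes and the WT lines from 6213 to 3765. Depth is unknown, so low genes such as Braf cannot be given a counting error.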
